A study of Homo sapiens with 2 samples.

Results

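The protein tyrosine phosphatase family was described in SK-LMS-1 and SK-UT-1, 2 human leiomyosarcoma lines, which are cultured tumours of smooth muscle type. Its members were taken by gene symbol, as the genes named PTPR with a letter and an optional digit, and the genes named PTPN with a number. The choice was made with earlier results of these data known. The symbols gave 37 of the 26485 genes in the deposited table, 20 of receptor type (PTPR) and 17 of non-receptor type (PTPN). RNA came from SK-LMS-1 cells and from SK-UT-1 cells, both treated with the solvent DMSO, with 1 library each. The series concerns an inhibitor of the histone methyltransferase SUV39H2 combined with a PARP inhibitor in uterine leiomyosarcoma, and the libraries used here show how the family differs between the lines under solvent. With 1 library per line no difference has a replicate check, no test was made, and the intervals cover counting error only.

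Tyrosine phosphatases remove phosphate from tyrosine residues and so oppose, or in some cases release, the tyrosine kinases. Receptor types cross the cell membrane and carry an ectodomain that binds matrix, ligands or the same protein on a neighbouring cell, while non-receptor types are placed inside the cell by SH2, FERM, PDZ or other domains. Members of both kinds act on cell contacts, migration and growth factor signalling.

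The libraries held 6906280 counts in SK-LMS-1 cells, against 7635850 counts in SK-UT-1 cells. Levels are given in CPM, counts per 1000000 after TMM scaling of the library sizes, and levels of different genes are compared only as CPM per kb of exon. Genes that reached 1 CPM in either library are called measured, and a member was counted as different at 2-fold or more. Of 12 smooth muscle marker genes, 10 were measured. Of these, 5 passed 2-fold towards SK-LMS-1, 3 towards SK-UT-1 and 2 were below 2-fold. The shares were 50% towards SK-LMS-1 and 30% towards SK-UT-1, beside 21.9% and 18.3% over all measured genes. ACTG2 reached 1 CPM in SK-LMS-1 alone, and DES and LMOD1 in SK-UT-1 alone, which fixed their direction. The interval of LMOD1 (0.587 to 8.89) held 1, and the shares were not tested. CALD1 was the highest, per exon length too, at 749 CPM in SK-LMS-1 cells, against 343 CPM in SK-UT-1 cells. MYLK and TAGLN were more abundant in SK-LMS-1 cells, with ratios of 41.6 (33.3 to 52.6) and 11.6 (8.44 to 16.2). ACTA2 and DES were more abundant in SK-UT-1 cells, with ratios of 5.13 (3.97 to 6.72) and 21.2 (3.48 to 868). Few or no counts fell on 2 defining genes: MYOCD had 0 counts in both lines, and MYH11 had 5 counts in SK-LMS-1 cells, against 2 counts in SK-UT-1 cells. MYH11 is also listed on an alternate contig of chromosome 16, so its counts are uncertain if reads aligned to both copies.

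The sharpest divergence within the family lay between the closest relatives PTPRG and PTPRZ1, the receptor pair with a carbonic anhydrase-like domain. Their promoters are shown because 1 gene was higher in each line. Each sequence runs 5′ to 3′ over 250 bases before and 50 bases after the start (RefSeq, GRCh38.p14), and capitals mark CG dinucleotides. The promoter of PTPRC, the leukocyte phosphatase CD45, is given for contrast, since this gene had 0 counts in both lines. PTPRC is also listed on an alternate contig of chromosome 1, so its counts are uncertain if reads aligned to both copies.
PTPRZ1 (chr7:121872911-121873210, plus strand): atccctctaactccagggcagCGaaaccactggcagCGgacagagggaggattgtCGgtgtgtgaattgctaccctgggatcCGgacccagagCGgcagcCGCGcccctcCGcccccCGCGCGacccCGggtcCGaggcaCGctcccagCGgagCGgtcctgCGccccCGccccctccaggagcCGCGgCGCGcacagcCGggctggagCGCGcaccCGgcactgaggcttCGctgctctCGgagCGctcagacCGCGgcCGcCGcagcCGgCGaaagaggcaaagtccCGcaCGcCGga
PTPRG (chr3:61561321-61561620, plus strand): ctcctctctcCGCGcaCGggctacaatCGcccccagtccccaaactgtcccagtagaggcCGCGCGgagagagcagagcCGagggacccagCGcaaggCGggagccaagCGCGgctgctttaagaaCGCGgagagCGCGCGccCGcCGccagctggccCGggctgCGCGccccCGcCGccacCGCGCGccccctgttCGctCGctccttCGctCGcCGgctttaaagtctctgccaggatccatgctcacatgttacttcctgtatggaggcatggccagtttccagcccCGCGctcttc
PTPRC (chr1:198638790-198639089, plus strand): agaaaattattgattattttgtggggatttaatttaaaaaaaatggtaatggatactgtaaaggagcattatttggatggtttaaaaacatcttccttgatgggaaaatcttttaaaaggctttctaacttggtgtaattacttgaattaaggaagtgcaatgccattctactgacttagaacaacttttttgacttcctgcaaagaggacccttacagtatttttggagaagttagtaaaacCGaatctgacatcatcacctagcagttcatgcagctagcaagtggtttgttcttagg
The PTPRZ1 promoter holds 38 CG dinucleotides, the PTPRG promoter 34 and the PTPRC promoter 1.

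Of the 28 measured members, 16 differed by 2-fold or more, most of them receptor types. Among 20 receptor genes, 15 were measured, of which 8 exceeded 2-fold towards SK-LMS-1, 3 exceeded 2-fold towards SK-UT-1 and 4 lay within 2-fold. Among 17 non-receptor genes, 13 were measured, with 3 past 2-fold towards SK-LMS-1, 2 towards SK-UT-1 and 8 below 2-fold. Over all 14324 measured genes, 21.9% passed 2-fold towards SK-LMS-1, 18.3% towards SK-UT-1 and 40.2% in either direction. The receptor share towards SK-LMS-1 was 53.3%, while the 3 of 15 towards SK-UT-1 are close to the background. The non-receptor shares of 23.1% towards SK-LMS-1 and 15.4% towards SK-UT-1 were both near the background. The difference between the classes was not tested.

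The median log2 ratio, SK-LMS-1 over SK-UT-1, was 1.06 over the measured receptor genes, -0.18 over the measured non-receptor genes and 0.01 over all measured genes. At 4-fold or more, 7 receptor genes leaned to SK-LMS-1 and 3 to SK-UT-1, while 2 non-receptor genes leaned to SK-LMS-1 and 0 to SK-UT-1. The background at 4-fold was 11.4% towards SK-LMS-1, 7.30% towards SK-UT-1 and 18.7% in either direction.

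A gene that is measured through 1 line alone is likely to pass 2-fold through that choice, so the counts were also split by where the gene was seen. Of the 15 receptor genes, 9 reached 1 CPM in both lines, 5 in SK-LMS-1 alone (PTPRM, PTPRB, PTPRE, PTPRQ and PTPRD) and 1 in SK-UT-1 alone (PTPRZ1). Over all 14324 measured genes, 1427 reached it in SK-LMS-1 alone and 1151 in SK-UT-1 alone. Among the 9 present in both, 3 exceeded 2-fold towards SK-LMS-1 and 2 towards SK-UT-1, where the background over 11746 such genes was 15.3% towards SK-LMS-1, 13.0% towards SK-UT-1 and 28.3% in either direction. Their median log2 ratio was 0.01, so the receptor median of 1.06 rests on the genes seen in 1 line. Of the 13 non-receptor genes, 12 reached 1 CPM in both lines and PTPN22 in SK-LMS-1 alone.

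**Figure D1:**
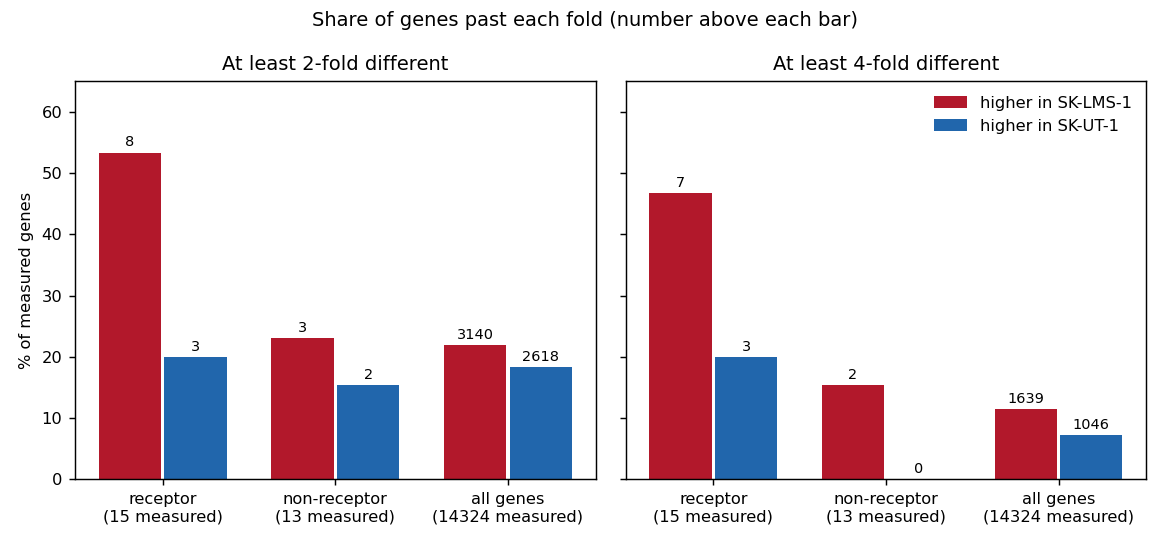
Percent of measured genes (vertical axis) at least 2-fold (left panel) and at least 4-fold different (right panel) between the 2 libraries, for receptor types, non-receptor types and all measured genes, with the number of genes above each bar. The red bar for receptor types stands at 53.3% for 2-fold, against 21.9% over all genes, and non-receptor types lie near the all-gene bars. Of the 8 receptor genes in that red bar, 5 reached 1 CPM in SK-LMS-1 alone, which fixed their direction. Among the 9 receptor genes at 1 CPM or more in both lines, 3 passed 2-fold towards SK-LMS-1.

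**Figure D2:**
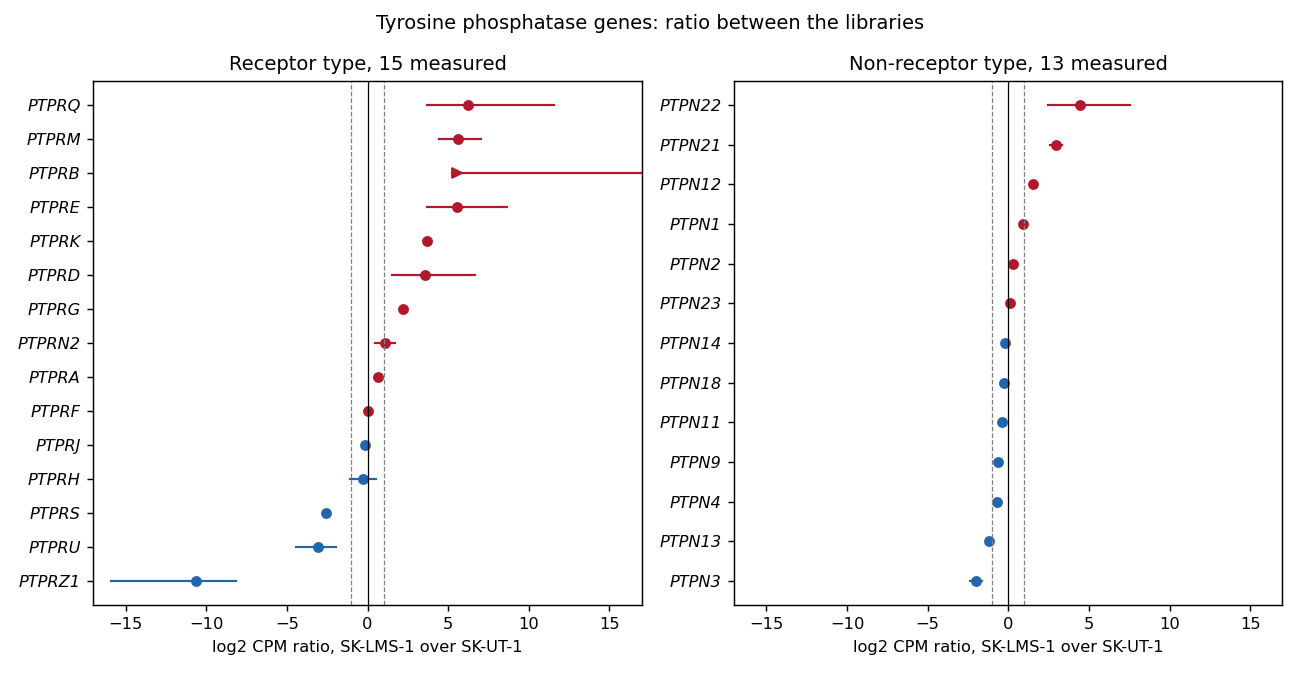
Log2 CPM ratio of each measured member, SK-LMS-1 over SK-UT-1, with its exact 95% interval for counting error (lines), receptor types left and non-receptor types right. Dashed lines mark 2-fold; the triangle for PTPRB is a lower bound because SK-UT-1 had 0 counts. The receptor types spread from PTPRZ1 far on the SK-UT-1 side to PTPRQ on the SK-LMS-1 side, while 8 of 13 non-receptor types sit between the dashed lines.

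The carbonic anhydrase-like pair split between the lines. PTPRZ1, which also carries chondroitin sulfate chains and is known from glial cells, where it binds pleiotrophin, had 1 count in SK-LMS-1 (0.153 CPM) and 1915 counts in SK-UT-1 (238 CPM). It was higher in SK-UT-1 by a factor of 1559 (95% interval 279 to 61610.3), the largest ratio among the measured members. PTPRG, which binds contactins, had 171 CPM in SK-LMS-1 cells, against 36.7 CPM in SK-UT-1 cells, higher in SK-LMS-1 by a factor of 4.67 (4.11 to 5.33). Per kb of exon, SK-LMS-1 held 25.8 CPM of PTPRG and 0.0187 of PTPRZ1, and SK-UT-1 held 5.51 of PTPRG and 29.2 of PTPRZ1, so the leading member of the pair changed between the lines. In hg38, PTPRZ1 spans chr7:121873105-122062036 and PTPRG chr3:61561569-62294898, both on the plus strand. PTPRG-AS1, transcribed from the opposite strand of that locus, had 24 counts in SK-LMS-1 cells, against 0 in SK-UT-1 cells, and counting used strand.

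Because PTPRZ1 is known from glia, glial markers were read beside it. Of 9 glial marker genes, 1 was measured, MBP, at 24.1 CPM in SK-LMS-1 cells, against 19.1 CPM in SK-UT-1 cells. SOX10, OLIG1 and OLIG2, which define oligodendrocyte lineage cells, had 0 counts in both lines. The summed level of the 9 genes was 24.4 CPM in SK-LMS-1 cells, against 19.5 CPM in SK-UT-1 cells. In bulk RNA such as this, more cells that express a gene and more RNA of it per cell cannot be told apart.

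The adhesion receptors with a MAM domain, several of which bind their own kind on the next cell, were higher in SK-LMS-1 for PTPRK and PTPRM and higher in SK-UT-1 for PTPRU. PTPRK had 391 CPM in SK-LMS-1 cells, against 29.6 CPM in SK-UT-1 cells, higher in SK-LMS-1 by a factor of 13.2 (11.6 to 15.1). It was the most abundant receptor gene of SK-LMS-1 per exon length. PTPRM had 236 counts (36 CPM) in SK-LMS-1 cells, against 6 counts (0.745 CPM) in SK-UT-1 cells, higher in SK-LMS-1 by a factor of 48.3 (21.9 to 133). PTPRU was the reverse, with 1.07 CPM in SK-LMS-1 cells, against 9.07 CPM in SK-UT-1 cells, higher in SK-UT-1 by a factor of 8.49 (3.92 to 21.9). PTPRT, known from brain, had 0 counts in both, which allows up to 3 counts, or 0.458 CPM for SK-LMS-1 cells and 0.373 CPM for SK-UT-1 cells. PTPRK lies at chr6:127968779-128520674 on the minus strand and is also listed on an alternate contig of chromosome 6, so its counts are uncertain if reads aligned to both copies. PTPRM lies at chr18:7567316-8406861 and PTPRU at chr1:29236516-29326813, both on the plus strand.

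The LAR subfamily, receptors that organise axons and synapses and bind heparan and chondroitin sulfate proteoglycans, held a member of each kind. PTPRS had 75.9 CPM in SK-LMS-1 cells, against 461 CPM in SK-UT-1 cells, higher in SK-UT-1 by a factor of 6.07 (5.53 to 6.68). PTPRF, the founding LAR gene, was level at 241 CPM in SK-LMS-1 cells, against 239 CPM in SK-UT-1 cells, a ratio of 1.01 (0.943 to 1.08) whose direction turned under scaling by library totals (log2 ratio -0.14) or the upper quartile (-0.12). PTPRD was low throughout, with 19 counts in SK-LMS-1 cells, against 2 counts in SK-UT-1 cells, higher in SK-LMS-1 by a factor of 11.7 (2.82 to 103). PTPRS, at chr19:5205508-5340803 on the minus strand, was the most abundant receptor gene of SK-UT-1 per exon length.

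Receptors with fibronectin repeats and a single phosphatase domain included genes known from specialised tissues. PTPRB, the endothelial phosphatase VE-PTP that acts on the receptor TIE2, had 116 counts (17.7 CPM) in SK-LMS-1 cells, against 0 in SK-UT-1 cells, higher in SK-LMS-1 by a factor of at least 47.5 against a floor of 3 counts (lower 95% limit 38). PTPRQ, known from the hair cells of the inner ear, had 61 counts in SK-LMS-1 cells, against 1 in SK-UT-1 cells, higher in SK-LMS-1 by a factor of 74.9 (13 to 3007). PTPRJ, a receptor that binds thrombospondin, had 106 CPM in SK-LMS-1 cells, against 117 CPM in SK-UT-1 cells, a ratio of 1.11 towards SK-UT-1 (interval from just above 1 to 1.22). PTPRH, known from gut epithelium, had 25 and 37 counts in SK-LMS-1 and SK-UT-1, and its interval of 0.706 to 2.09 held 1. Of 8 epithelial markers 6 were measured. KRT7 had 78.6 CPM in SK-LMS-1 cells, against 0.373 CPM in SK-UT-1 cells, and KRT18 had 73.3 and 10.6 CPM. CLDN4 leaned the same way with 12 and 3 counts. KRT19 leaned to SK-UT-1, at 9.92 and 19.3 CPM, as did EPCAM with 1 and 9 counts. KRT8 was level at 16.3 and 16.2 CPM. CDH1 and ESRP1 had 0 counts in SK-LMS-1 cells, against 4 and 2 in SK-UT-1 cells. The summed level over the 8 was 180.1 CPM in SK-LMS-1 cells, against 48.6 CPM in SK-UT-1 cells. The part of these markers in the PTPRH values was not tested. PTPRO, known from kidney podocytes, had 1 count in SK-LMS-1 cells, against 0 in SK-UT-1 cells.

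Endothelial markers were read beside PTPRB. VWF, KDR and TEK, the gene of TIE2, had 0 counts in both lines, and CDH5, which encodes VE-cadherin, had 2 counts in SK-LMS-1 cells, against 0 in SK-UT-1 cells. Of the 8 endothelial markers 4 were measured. TIE1 had 36.5 CPM in SK-LMS-1 cells, against 0 counts in SK-UT-1 cells, and EMCN had 0.153 CPM in SK-LMS-1 cells, against 33.7 CPM in SK-UT-1 cells. ROBO4 had 10.1 CPM in SK-LMS-1 cells, against 4.85 CPM in SK-UT-1 cells, and CLDN5 had 0 counts in SK-LMS-1 cells, against 11 in SK-UT-1 cells. The summed level over all 8 was 47 CPM in SK-LMS-1 cells, against 39.9 CPM in SK-UT-1 cells. Their part in the PTPRB difference was not tested.

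Receptors with short ectodomains, which can activate SRC kinases by removing an inhibitory phosphate, were split by abundance. PTPRA was high in both lines, at 184 CPM in SK-LMS-1 cells, against 117 CPM in SK-UT-1 cells, higher in SK-LMS-1 by a factor of 1.57 (1.44 to 1.72) and thus within 2-fold; 13.8% of its exon length overlaps VPS16 on the same strand. Its relative PTPRE had 77 counts (11.8 CPM) in SK-LMS-1 cells, against 2 counts (0.248 CPM) in SK-UT-1 cells, higher in SK-LMS-1 by a factor of 47.3 (12.7 to 397).

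Secretory granule and leukocyte receptors were low or silent. PTPRN2, the granule protein phogrin, had 9.31 CPM in SK-LMS-1 cells, against 4.47 CPM in SK-UT-1 cells, higher in SK-LMS-1 by a factor of 2.08 (1.36 to 3.24). It lay just past the 2-fold limit and was within 2-fold when scaled by library totals or by the upper quartile. Of 8 neuroendocrine marker genes 2 were measured, INA and SNAP25. The summed level of the 8 was 4.58 CPM in SK-LMS-1 cells, against 50.3 CPM in SK-UT-1 cells. INA made up most of the SK-UT-1 sum, with 0 counts in SK-LMS-1 cells, against 43.6 CPM in SK-UT-1 cells. SNAP25 had 3.51 and 5.72 CPM. CHGB and SCG2 had 0 and 6 counts in SK-LMS-1 cells, against 2 and 0 in SK-UT-1 cells. The part of these markers in the PTPRN2 values was not tested. PTPRN, the relative of PTPRN2, had 2 counts in SK-LMS-1 cells, against 0 in SK-UT-1 cells. PTPRR, which binds MAP kinases, had 4 counts in SK-LMS-1 cells, against 0 in SK-UT-1 cells, and PTPRC had 0 in both. Thus 5 receptor genes were not measured, PTPRC, PTPRN, PTPRO, PTPRR and PTPRT, each at 4 counts or fewer.

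**Figure D3:**
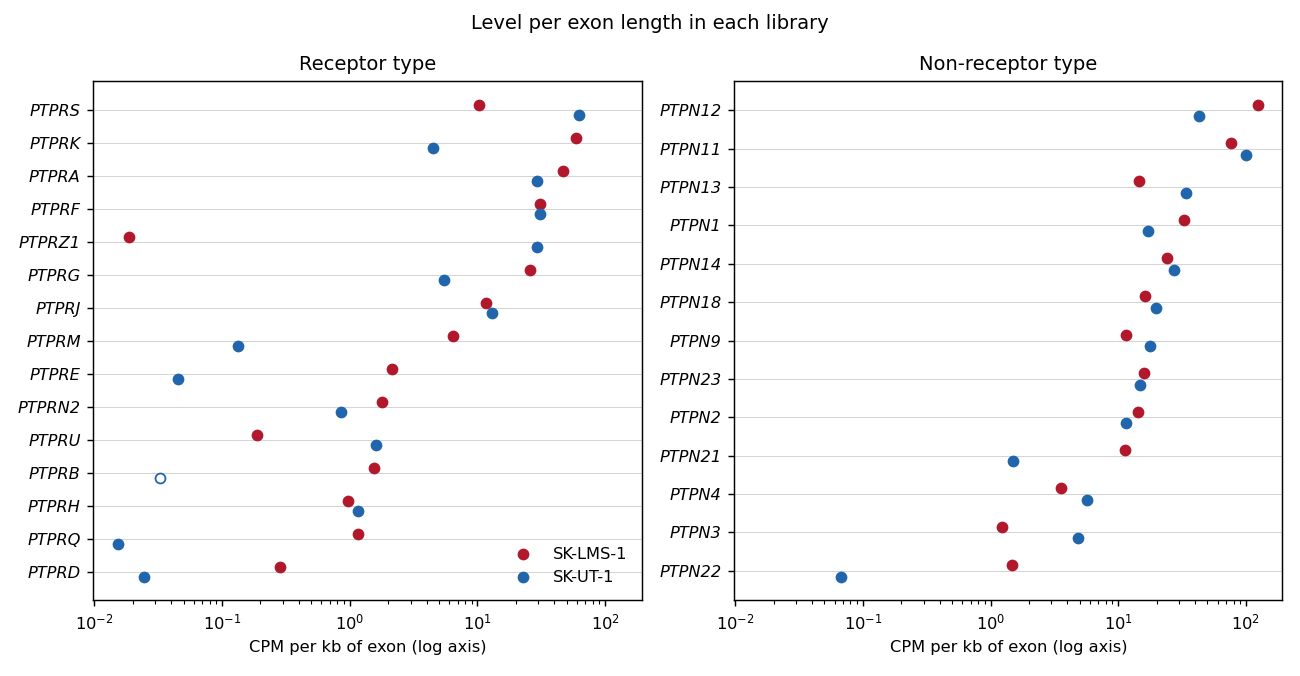
CPM per kb of exon (log axis) for each measured member in SK-LMS-1 (red, upper point) and SK-UT-1 (blue, lower point), sorted by the higher of the 2. The open circle for PTPRB stands for 0 counts, drawn at 3 counts. The points of PTPRZ1, PTPRM, PTPRB, PTPRE and PTPRQ lie furthest apart among the receptor types, and those of PTPN22 among the non-receptor types.

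Among non-receptor types, the PEST subfamily, which acts on focal adhesion and immune signalling proteins, was higher in SK-LMS-1 for 2 of 3 genes. PTPN12, or PTP-PEST, which dephosphorylates the adaptor p130Cas and controls cell migration, had 406 CPM in SK-LMS-1 cells, against 142 CPM in SK-UT-1 cells, higher in SK-LMS-1 by a factor of 2.86 (2.67 to 3.07). It lies at chr7:77537456-77640071 on the plus strand. PTPN22, a phosphatase known from lymphocytes, had 35 counts in SK-LMS-1 cells, against 2 in SK-UT-1 cells, higher in SK-LMS-1 by a factor of 21.5 (5.52 to 184). PTPN18 had 59.5 CPM in SK-LMS-1 cells, against 72.3 CPM in SK-UT-1 cells, within 2-fold.

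Leukocyte markers were read beside PTPN22. Of 13 such genes 4 were measured, CD68, CORO1A, LCP1 and CD14, with a summed level over the 13 of 104 CPM in SK-LMS-1 cells, against 24.4 CPM in SK-UT-1 cells. CD68, a lysosomal protein, made up most of it at 91.9 CPM in SK-LMS-1 cells, against 14.5 CPM in SK-UT-1 cells. LCP1, an actin-bundling protein, had 70 counts in SK-LMS-1 cells, against 0 in SK-UT-1 cells, the direction of PTPN22. CORO1A had 3 counts in SK-LMS-1 cells, against 67 in SK-UT-1 cells, and CD14 had 1 count in SK-LMS-1 cells, against 9 in SK-UT-1 cells. CD3D, CD2, MS4A1 and SPI1, which define lymphoid and myeloid cells, had 0 counts in both lines, and PTPRC likewise. The part of these markers in the PTPN22 difference was not tested.

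FERM and PDZ domain phosphatases, which sit at the cell cortex and at junctions, differed within each pair. PTPN21 had 70.8 CPM in SK-LMS-1 cells, against 9.32 CPM in SK-UT-1 cells, higher in SK-LMS-1 by a factor of 7.6 (5.94 to 9.83). Its relative PTPN14, which restrains the growth regulator YAP, was abundant and level, at 323 CPM in SK-LMS-1 cells, against 365 CPM in SK-UT-1 cells. PTPN3 had 12.1 CPM in SK-LMS-1 cells, against 47.7 CPM in SK-UT-1 cells, higher in SK-UT-1 by a factor of 3.96 (3.1 to 5.11) and just under 4-fold. Its relative PTPN4 had 40.6 CPM in SK-LMS-1 cells, against 65 CPM in SK-UT-1 cells, within 2-fold. PTPN13, a large PDZ scaffold phosphatase that binds the death receptor FAS, had 125 CPM in SK-LMS-1 cells, against 293 CPM in SK-UT-1 cells, higher in SK-UT-1 by a factor of 2.34 (2.16 to 2.54). PTPN21 lies at chr14:88465778-88554779 and PTPN3 at chr9:109375694-109498313, both on the minus strand, and PTPN13 at chr4:86594315-86815175 on the plus strand.

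The remaining 5 measured non-receptor genes lay within 2-fold. PTPN11, or SHP2, which passes growth factor signals to RAS, had 498 CPM in SK-LMS-1 cells, against 661 CPM in SK-UT-1 cells, higher in SK-UT-1 by a factor of 1.33 (1.27 to 1.39). PTPN1, or PTP1B, which acts on the insulin receptor, had 116 CPM in SK-LMS-1 cells, against 61.4 CPM in SK-UT-1 cells, higher in SK-LMS-1 by a factor of 1.9 (1.69 to 2.13), the nearest member below the 2-fold limit. PTPN2, which acts on JAK kinases, PTPN9, which carries a lipid-binding SEC14 domain, and PTPN23, which serves endosomal sorting, had ratios of 1.23 towards SK-LMS-1, 1.53 towards SK-UT-1 and 1.07 towards SK-LMS-1. Of these, the interval of PTPN23 held 1 (0.953 to 1.2), and its direction turned under library totals (log2 ratio -0.05) and the upper quartile (-0.03). The other 4 non-receptor genes were not measured. PTPN6, or SHP1, known from blood cells, had 0 counts in SK-LMS-1 cells, against 2 in SK-UT-1 cells, PTPN7 had 1 and 0, and PTPN5 and PTPN20, known from brain and testis, had 0 in both.

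The lines had similar class totals with a different make-up. Summed over the 20 receptor genes, the level was 1262 CPM in SK-LMS-1 cells, against 1258 CPM in SK-UT-1 cells. Over the 17 non-receptor genes it was 1845 CPM in SK-LMS-1 cells, against 1912 CPM in SK-UT-1 cells. Per kb of exon the receptor total was 199.5 in SK-LMS-1 cells, against 179 in SK-UT-1 cells, below the non-receptor totals of 346 for SK-LMS-1 cells and 298 for SK-UT-1. In SK-LMS-1, PTPRK took 29.8% of the receptor total per kb, PTPRA 23.2%, PTPRF 15.6% and PTPRG 12.9%. In SK-UT-1, PTPRS took 35%, PTPRF 17.3%, PTPRA 16.5% and PTPRZ1 16.3%, with PTPRK at 2.51%. Each set of 4 made up most of its class, 81.6% in SK-LMS-1 cells, against 85% in SK-UT-1 cells, with PTPRA and PTPRF in both sets.

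PTPN12 and PTPN11 led the non-receptor class in both lines in opposite order. PTPN12 took 35.6% of its total per kb in SK-LMS-1 cells, against 14.4% in SK-UT-1 cells. PTPN11 took 21.9% in SK-LMS-1 cells, against 33.7% in SK-UT-1 cells. Among all measured genes, the level per kb of PTPN12 lay at percentile 97.5 in SK-LMS-1 cells, against 89.2 in SK-UT-1 cells, and that of PTPN11 at 94.7 and 96.8.

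**Figure D4:**
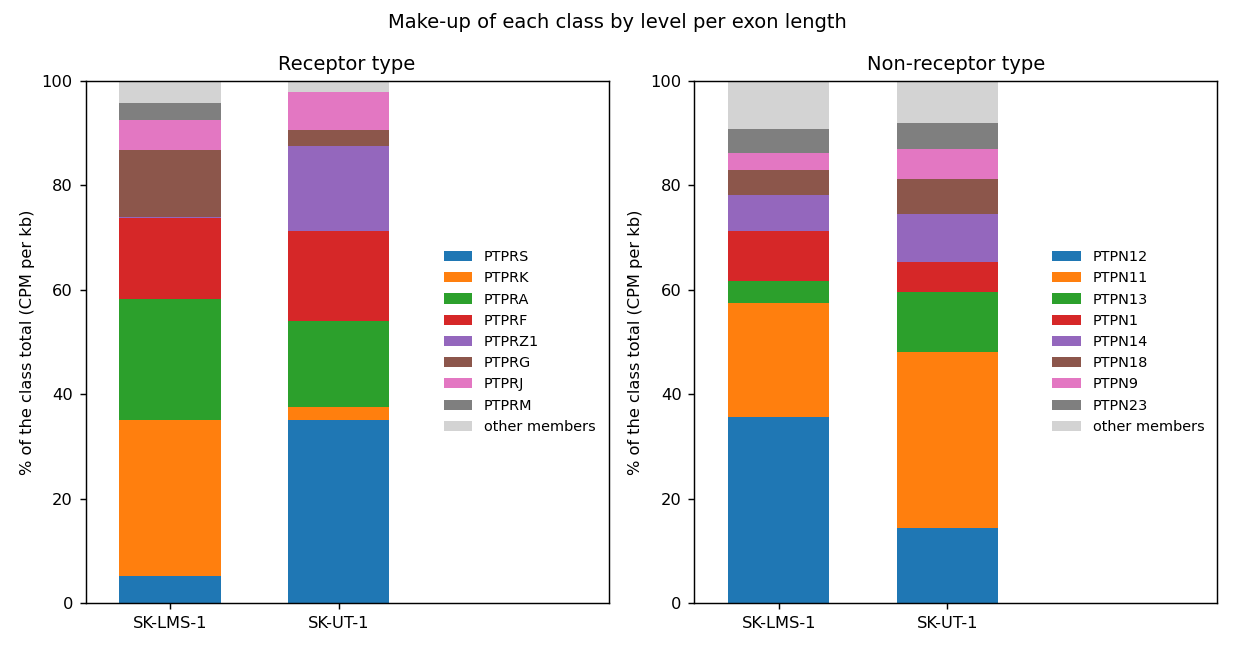
Share of each member in the summed CPM per kb of its class (percent, vertical axis) in SK-LMS-1 and SK-UT-1, with receptor types left and non-receptor types right. PTPRK is the largest receptor block in SK-LMS-1 at 29.8%, and PTPRS with PTPRZ1 fill 35% and 16.3% in SK-UT-1.

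Ligands of the receptor types were next compared. Of 26 listed ligand genes 15 were measured, with 7 past 2-fold towards SK-LMS-1, 5 towards SK-UT-1 and 3 below 2-fold, and a median log2 ratio of 0.49. These are 46.7% towards SK-LMS-1 and 33.3% towards SK-UT-1, beside 21.9% and 18.3% over all measured genes. Among those past 2-fold, PTN, CNTN5 and SLITRK4 reached 1 CPM in SK-LMS-1 alone, and LRRC4B, IL1RAPL1 and GPC4 in SK-UT-1 alone. Such genes are likely to pass 2-fold through that choice, and the shares were not tested. THBS1, which binds PTPRJ, had the highest level, per exon length too, at 1567 CPM in SK-LMS-1 cells, against 357 CPM in SK-UT-1 cells, higher in SK-LMS-1 by a factor of 4.39 (4.22 to 4.58). The ligands of PTPRZ1 were divided. PTN, or pleiotrophin, had 108 counts in SK-LMS-1 cells, against 0 in SK-UT-1 cells, higher in SK-LMS-1 by a factor of at least 44.2. TNC, or tenascin, had 949 CPM in SK-LMS-1 cells, against 3.48 CPM in SK-UT-1 cells, a ratio of 273 (189 to 411). MDK, or midkine, had 11.6 CPM in SK-LMS-1 cells, against 31.2 CPM in SK-UT-1 cells, higher in SK-UT-1 by a factor of 2.69 (2.07 to 3.52). CNTN1, a contactin that binds PTPRZ1, had 0 counts in both. Pleiotrophin and tenascin were therefore higher in the line with 1 count of PTPRZ1, and midkine in the line that expressed it.

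Other ligands were as divided. CNTN5, a contactin bound by PTPRG, had 106 counts in SK-LMS-1 cells, against 0 in SK-UT-1 cells, the same direction as PTPRG. LRRC4B, a synaptic partner of PTPRF, had 0 counts in SK-LMS-1 cells, against 112 in SK-UT-1 cells. COL18A1, a heparan sulfate proteoglycan, was higher in SK-UT-1 by a factor of 3.46 (2.58 to 4.7), whereas AGRN, another such proteoglycan named after its value was seen, was higher in SK-LMS-1 by a factor of 2.15 (1.87 to 2.47).

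Cytoplasmic partners of the receptor types held 13 measured of 14 genes, with 4 past 2-fold towards SK-LMS-1, 3 towards SK-UT-1 and 6 below 2-fold (median log2 ratio 0.38). These are 30.8% towards SK-LMS-1 and 23.1% towards SK-UT-1, beside a background of 21.9% and 18.3%. Among them, PPFIBP2 reached 1 CPM in SK-LMS-1 alone and PPFIA4 in SK-UT-1 alone. TRIO, a guanine nucleotide exchange factor that binds LAR, had 636 CPM in SK-LMS-1 cells, against 285 CPM in SK-UT-1 cells, higher in SK-LMS-1 by a factor of 2.23 (2.12 to 2.35). The scaffold genes MAGI1 and CASK were more abundant in SK-LMS-1 cells, with ratios of 2.63 (2.21 to 3.15) and 2.54 (2.16 to 2.99). PPFIA3, a liprin that anchors LAR receptors, was higher in SK-UT-1 by a factor of 9.86 (6.17 to 16.7), and the PDZ scaffold DLG4, which binds PTPRZ1, by a factor of 2.79 (2.12 to 3.71).

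Of 18 adaptors and partners of the non-receptor types 17 were measured, with 6 past 2-fold towards SK-LMS-1, 2 towards SK-UT-1 and 9 below 2-fold (median log2 ratio 0.52). These are 35.3% towards SK-LMS-1 and 11.8% towards SK-UT-1, where all measured genes had 21.9% and 18.3%. Among them, PECAM1 reached 1 CPM in SK-LMS-1 alone. IRS1, an insulin receptor substrate that docks SHP2, had 148 CPM in SK-LMS-1 cells, against 4.1 CPM in SK-UT-1 cells, higher in SK-LMS-1 by a factor of 36.2 (25.6 to 52.9). GAB2, another docking protein of SHP2, and PXN, the focal adhesion protein paxillin, were more abundant in SK-LMS-1 cells, with ratios of 4.28 (3.35 to 5.53) and 3.61 (3.29 to 3.97). PSTPIP2, a relative of the PTP-PEST partner PSTPIP1, and IRS2 were more abundant in SK-UT-1 cells, with ratios of 3.77 (2.36 to 6.29) and 2.27 (1.92 to 2.69). YAP1, bound by PTPN14, had the highest level, per exon length too, at 425 CPM in SK-LMS-1 cells, against 222 CPM in SK-UT-1 cells, within 2-fold.

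Tyrosine kinases that the family opposes, and tyrosine phosphatases outside it, were set beside these values. Of 24 kinase genes 19 were measured, with 5 past 2-fold towards SK-LMS-1, 3 towards SK-UT-1 and 11 below 2-fold (median log2 ratio 0.39). These are 26.3% towards SK-LMS-1 and 15.8% towards SK-UT-1, near the background of 21.9% and 18.3%. MET, the highest per exon length too, had 1374 CPM in SK-LMS-1 cells, against 750.5 CPM in SK-UT-1 cells. The receptor genes PDGFRA and IGF1R and the SRC-family kinase gene FYN were more abundant in SK-LMS-1 cells, with ratios of 106 (35.9 to 518), 51.2 (33.9 to 81.2) and 6.57 (5.14 to 8.5). PDGFRA had 259 counts in SK-LMS-1 cells, against 3 in SK-UT-1 cells, and reached 1 CPM in SK-LMS-1 alone. JAK3, LYN and ERBB2 were more abundant in SK-UT-1 cells, with ratios of 6.35 (3.28 to 13.8), 4.44 (3.48 to 5.72) and 3.48 (2.92 to 4.17).

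Of 20 other phosphatase genes 18 were measured, with 4 past 2-fold towards SK-LMS-1, 3 towards SK-UT-1 and 11 below 2-fold (median log2 ratio -0.06), near the background. EYA4 and EYA1, nuclear cofactors with phosphatase activity, had 118 and 50 counts in SK-LMS-1 cells, against 0 in SK-UT-1 cells. The cell cycle phosphatases CDC25A and CDC25C were more abundant in SK-UT-1 cells, with ratios of 3.2 (2.7 to 3.82) and 2.71 (2.19 to 3.37). PTP4A2 had 388 CPM in SK-LMS-1 cells, against 326 CPM in SK-UT-1 cells.

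Members differed in how they stood among their chromosomal neighbours. Within 1 Mb of PTPRZ1 lay 6 other measured genes, of which 3 exceeded 2-fold towards SK-LMS-1 and 0 towards SK-UT-1, the opposite of PTPRZ1 itself. Their median log2 ratio was 1.97, and they included CPED1 with 877 counts in SK-LMS-1 cells, against 0 in SK-UT-1 cells, and the growth factor gene WNT16 with 27 and 0. The 3 that exceeded 2-fold, CPED1, WNT16 and CADPS2, reached 1 CPM in SK-LMS-1 alone, which fixed their direction. PTPN21 was higher in SK-LMS-1 together with its surroundings, where 6 of 7 neighbours, FOXN3 and GALC among them, exceeded 2-fold towards SK-LMS-1 (median 2.25). All 3 measured neighbours of PTPRG (PTPRG-AS1, C3orf14 and CADPS) were likewise higher in SK-LMS-1. So were 3 of 4 of PTPRQ (SYT1, PAWR and ACSS3). Of these neighbours of PTPRG and PTPRQ, all but PAWR reached 1 CPM in SK-LMS-1 alone, which fixed their direction. EML5 and FOXN3-AS1 near PTPN21 were also measured through SK-LMS-1 alone. Over all measured genes, 21.9% passed 2-fold towards SK-LMS-1. Some other members that were higher in SK-LMS-1 had neighbours nearer level. The medians were 0.36 over 7 genes around PTPRM, 0.30 over 7 around PTPRB and -0.26 over 2 around PTPRE. Near PTPRM, and likewise near PTPRB, 2 neighbours passed 2-fold towards SK-LMS-1 and 0 towards SK-UT-1. Around PTPN22 the median was -0.37 over 17, where 1 neighbour passed 2-fold towards SK-LMS-1 and 4 towards SK-UT-1. Around PTPRK it was 1.11 over 5, with 3 past 2-fold towards SK-LMS-1 and 1 towards SK-UT-1. Medians of 0.56 over 8 around PTPN12 and 0.31 over 9 around PTPRN2 each came with 3 past 2-fold towards SK-LMS-1 and 0 towards SK-UT-1. PTPRD had 1 measured neighbour, at -0.03. PTPRB and PTPRR lie 632 bases apart on chromosome 12, both on the minus strand, and had 116 and 4 counts in SK-LMS-1 and 0 and 0 in SK-UT-1. Around PTPRS and PTPRU the neighbours were near level, with medians of -0.16 over 33 genes and -0.18 over 22. For PTPN13 the median was -0.61 over 7, with 2 past 2-fold towards SK-LMS-1 and 2 towards SK-UT-1. For PTPN3 it was 0.66 over 11, with 4 towards SK-LMS-1 and 2 towards SK-UT-1. Receptor genes were long, with a median span of 189.6 kb against 90.9 kb for the non-receptor genes, and 6 receptor genes but 0 non-receptor genes spanned over 500 kb.

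**Figure D5:**
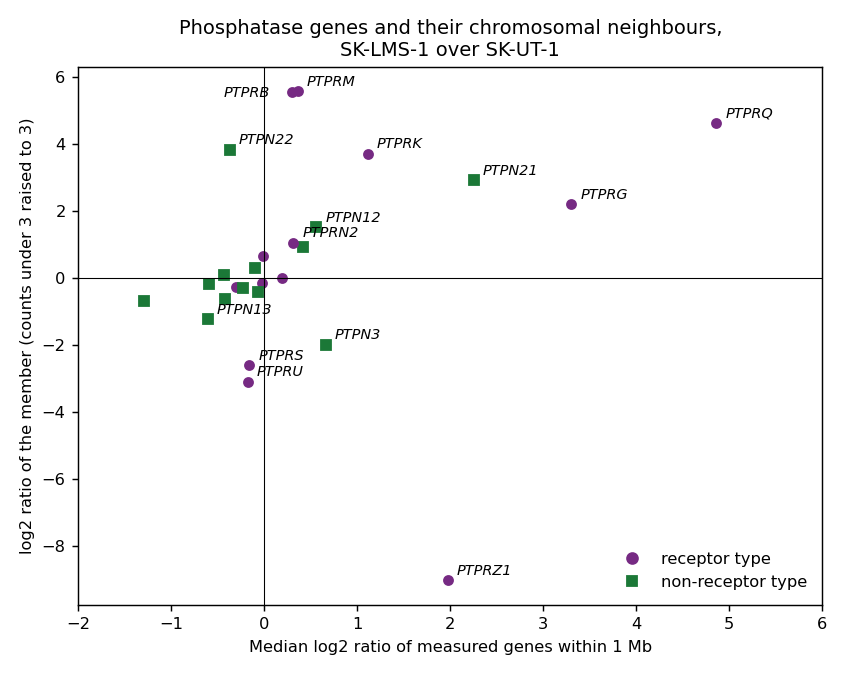
Log2 ratio of each measured member with at least 3 measured neighbours (vertical axis) against the median log2 ratio of measured genes within 1 Mb (horizontal axis), SK-LMS-1 over SK-UT-1, with receptor types as circles and non-receptor types as squares. PTPRZ1 sits low at -9.02 (counts under 3 raised to 3) although its neighbours have a median of 1.97, while PTPRG, PTPRQ and PTPN21 lie up and to the right with theirs. The 3 neighbours of PTPRG, and several around PTPRZ1 and PTPRQ, reached 1 CPM in SK-LMS-1 alone.

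A RefSeq promoter within 1 kb of the gene's 5′ end in the table was found for 30 of the 37 members. A CpG-rich promoter, with CG dinucleotides above 0.6 of the number expected from base content, was present at 19 of 22 measured members and 4 of 8 members not measured. Over all genes with such a promoter the shares were 84.1% of 9966 measured and 28.2% of 5282 not measured genes. All 5 members higher in SK-UT-1 had one, PTPRS with 55 CG dinucleotides, PTPRU with 47, PTPN3 with 45, PTPRZ1 with 38 and PTPN13 with 23. So did 7 of 8 members higher in SK-LMS-1 and 7 of 9 within 2-fold. The exceptions among measured members were PTPN22, PTPRH and PTPRA with 4, 8 and 8. PTPRT, silent in both lines, had 53. The 6-letter motif GGGCGG is known as a binding sequence of the factor SP1 and was searched on both strands. It occurred in 20 of the 30 promoters, against 57.7% of all 15248, a background that mixes measured and not measured genes. Among measured members the motif was in 16 of 22, near the 71.2% of all measured genes. Among members not measured the motif was in 4 of 8, against 32.1% of all not measured genes. It is in the PTPRZ1 promoter and not in the PTPRG or PTPRC promoter. TATAAA on either strand was in 0 of the 30, against 9.52% of all. That share was lower among measured genes, to which 22 of the 30 belong. A match describes letters only.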

How the data were processed

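Total RNA of DMSO-treated SK-LMS-1 and SK-UT-1 cells was prepared with a stranded SMARTer kit, per the labels' protocols. The authors counted reads by gene name with featureCounts 2.0.1 (hg38, strand setting 1), per the file headers, and the deposited unit is the raw count; a fragment over several genes counted for each. No aligner is named: it is not given in the sources. Exon lengths were worked out from the exon positions in the same table, leaving out alternate contigs. They were 6569 bases for PTPRK and 7415 for PTPRC, where the deposited lengths are 13138 and 11338. The table holds 2 further count columns that match neither sample and were not used.

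Counts were scaled with edgeR 4.0.16 (the TMM factor was 0.949 for the SK-LMS-1 library and 1.05 for the other) in R 4.3.3. Ratios are SK-LMS-1 over SK-UT-1, with exact conditional binomial (Clopper-Pearson) 95% intervals that cover counting error only, since amplified reads are not independent molecules. Counts under 3 were raised to 3 for the size rule, medians and bounds. Alternatives were other scalings (library totals, upper quartile, DESeq2 1.42.0 size factors), filters, floors and thinning. The procedure was tested on simulated data. With 1 library per line no count model could be fitted. All members may be named. Of each companion list the gene with the highest CPM and up to 3 genes per direction at 2-fold and 5 CPM or more were named, and of each marker list those that bear on a member; some genes of these lists are not reported here. The members and lists were chosen with earlier results of these data known.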

Additional observations from a re-analysis of the deposited data

How the results depend on the processing

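No paired analysis was possible because each line has 1 library, and no library could be left out. Scaling by library totals or by the upper quartile moved every log2 ratio by -0.15 and -0.13. The non-receptor median was then -0.33 and -0.31 in place of -0.18, and 0.1 with no filter beyond 1 count, which adds genes near 0. The receptor median was 0.33 over genes with 10 counts or more in both libraries and 0.01 over genes with 1 CPM or more in both, the last chosen after seeing the data. With 10 counts in both, the receptor counts at 2-fold were 3 towards SK-LMS-1 and 1 towards SK-UT-1, because genes near silent in a line drop out. With 1 CPM in both, 3 receptor genes passed towards SK-LMS-1. At 4-fold, 0 non-receptor genes were higher in SK-UT-1. All other class counts stayed within 1.5 times. Of 140 single-member values under 5 alternatives, 126 lay inside the interval of the first value, 14 outside it and 0 of the members at least 2-fold different reversed. Depth limits PTPRZ1, PTPRQ, PTPRE, PTPRD and PTPN22, each with 1 or 2 counts in its lower library.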
